A study of Mus musculus with 6 samples.

Results

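The 9 genes described here are among those in which mutations cause polycystic disease of the kidney or liver. The 9 are Pkd1, Pkd2, Pkhd1, Dzip1l, Bicc1, Anks6, Prkcsh, Ganab and Sec63. They were found by matching the Ensembl identifiers of the deposited expression table to these symbols, and each matched 1 of the 52550 genes listed. RNA sequencing measured them in GFP-positive cells sorted from the embryonic livers of Sox9-GFP transgenic mice of the CD-1 strain, which carry green fluorescent protein as a mark of cells with the biliary transcription factor SOX9. There were 3 libraries for each of the stages E16.5 and E18.5, here called replicates A, B and C, and both stages carried the same transgene and received no other treatment. Each library came from a pool of 15 livers, and cells of the hematopoietic lineage had been depleted before the sort. The sample labels call the cells cholangiocytes and give the stages as embryonic days 16 and 18, and the study's stages are used below. The labels do not say whether the pools of a stage were independent of each other, so p-values measure the spread between these libraries, part of which may be technical.

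Cholangiocytes are the epithelial cells that line the bile ducts, and each carries a primary cilium on its apical side. Polycystin 1 and polycystin 2, the products of Pkd1 and Pkd2, form a receptor-channel complex at the cilium, and fibrocystin, the product of Pkhd1, is found at the cilium and the apical membrane. Polycystins and fibrocystin are membrane glycoproteins made in the endoplasmic reticulum, where SEC63 takes part in moving new chains across the membrane and where glucosidase II, built of the catalytic subunit GANAB and the regulatory subunit PRKCSH, trims their sugars. Loss of these proteins is known for cysts that arise from kidney tubules or from bile ducts.

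All 9 genes were detected in every library. The unit is TPM, a relative transcript abundance with the same total in every library. It scales the read count of a gene by its length and by the total of the library, so that levels of different genes can be compared roughly. The length is that of all annotated exons together, whichever of them the cells use. At E16.5 the mean level ran in the order Ganab, Bicc1, Prkcsh, Pkhd1, Pkd2, Sec63, Pkd1, Dzip1l and Anks6. In that order, the libraries of Bicc1 and Prkcsh, of Pkhd1 and Pkd2, and of Pkd2 and Sec63 overlapped in range. Within a library, however, Bicc1 was above Prkcsh and Pkhd1 above Pkd2 in 3 of 3 libraries, while Pkd2 was above Sec63 in 2 of 3, so Pkd2 and Sec63 were the neighbours with no fixed order. At E18.5 the order was Bicc1, Ganab, Pkhd1, Prkcsh, Pkd2, Dzip1l, Pkd1, Sec63 and Anks6, and the ranges overlapped for Prkcsh and Pkd2, with Prkcsh the higher in 3 of 3 libraries, and for Pkd1 and Sec63, with Pkd1 the higher in 2 of 3. Ganab was above 99.1% of the 21819 protein-coding genes at E16.5, and Bicc1 was above 97.9% there and above 99.4% at E18.5. Anks6 was the least abundant member, above 42.1% of protein-coding genes at E16.5 and 46.6% at E18.5.

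**Figure D1:**
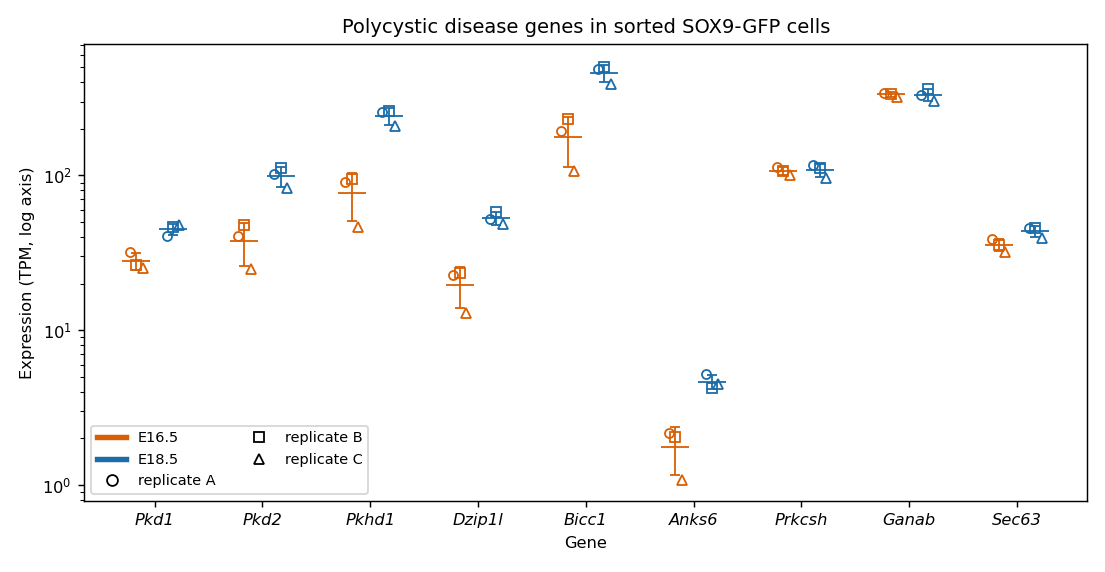
TPM of the 9 genes in each library, on a log axis, with E16.5 and E18.5 side by side, a point for each library (replicates A, B and C) and a bar for the mean with its SD (n = 3). Pkhd1 stood between 46.7 and 95.4 TPM at E16.5 and between 208 and 259.6 TPM at E18.5, whereas Ganab stood between 302 and 360.5 TPM in all 6 libraries.

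As a measure of depth, reads were recovered from the TPM for 49583 of the 52550 genes. Their sum was 23193537 to 26206374 reads at E16.5 and 13093937 to 22643868 reads at E18.5, so every E18.5 library was lower in this partial sum. The depth over all genes was not recovered. Reads could be recovered for 6 of the 9 genes and ran from 823 for Dzip1l in replicate C of E16.5 to 25293 for Pkhd1 in replicate A of E18.5. The counting error for these 6 genes was 0.629% to 3.49%, and it leaves out errors from amplification, which reads with no molecular tag cannot show. It was not computed for Pkd1, Ganab and Anks6, the last of which was the least abundant member. For the labelled cell type, all 11 cholangiocyte markers were detected, and their summed level was 976 to 2945 TPM at E16.5 and 8797 to 14856 TPM at E18.5. Much of that sum was 1 gene, Spp1, at 469 to 1767 TPM at E16.5 and 6629 to 12121 TPM at E18.5. The 12 hepatoblast and hepatocyte markers summed to 178777 to 226860 TPM at E16.5 and to 41697 to 102929 TPM at E18.5, so their sum exceeded that of the cholangiocyte markers in every library of both stages. Much of it was Alb, at 117854 to 148077 TPM at E16.5 and 30024 to 70151 TPM at E18.5. The 7 megakaryocyte markers summed to 3143 to 9180 TPM at E16.5 and to 84.6 to 723 TPM at E18.5. For 6 pancreatic acinar markers the sum was 77.6 to 2406 TPM at E16.5, with Ctrb1 at 1914 TPM in replicate A, and 14.4 to 52.6 TPM at E18.5. For 6 mesenchyme markers it was 93.6 to 212 TPM at E16.5 and 210 to 614 TPM at E18.5. In bulk RNA, fewer cells of a type cannot be told apart from less RNA per cell, and the part of these marker levels in the results below was not tested. Of 6 kidney tubule markers, 5 stayed under 1 TPM in every library. The other, Cdh16, ran from 0.628 to 7.86 TPM and was higher at E18.5 (log2 fold change 1.38, limma adjusted p = 0.0455).

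Between the stages, 6 of the 9 genes rose and 3 did not pass the test, with limma on log2(TPM + 1) and an adjusted p under 0.05, and 0 fell, also at an unadjusted p under 0.05. Those that rose were Pkhd1, Bicc1, Dzip1l, Pkd2, Anks6 and Pkd1, with mean TPM 1.61 to 3.12 times higher at E18.5, whereas the 3 genes of the endoplasmic reticulum did not pass. Over all 22452 genes tested, 26.0% were called higher and 5.22% lower, which makes 31.2% in all, and the median log2 fold change was 0.42, against a median of 1.05 over the 9 genes. For 7 of the 9 genes every E18.5 library was above every E16.5 library, which held for 45.0% of all genes tested, while 53.3% showed no overlap in either direction. The exact permutation test on a single gene cannot go below p = 0.1 with 3 libraries against 3. The calls depend on the scaling of the libraries and on replicate A of E18.5, as given for each gene.

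**Figure D2:**
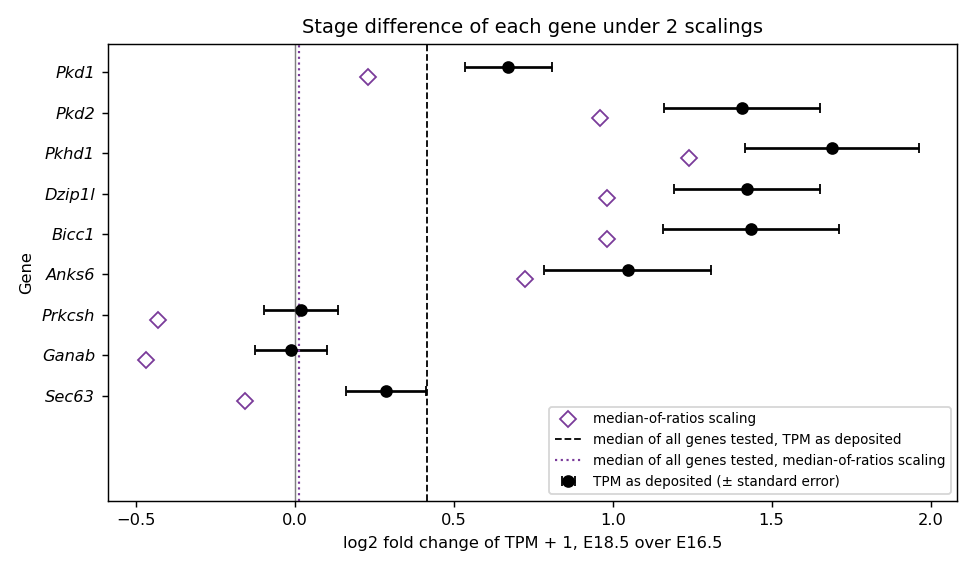
Log2 fold change of TPM + 1 (x axis, E18.5 over E16.5) of each gene (y axis), as filled points with their SE for the TPM as deposited and as open diamonds after median-of-ratios scaling, with vertical lines at 0 and at the median of all genes tested under each scaling. With TPM as deposited, Pkhd1 lay highest at 1.69 and Prkcsh and Ganab lay at 0.02 and -0.01, and after the scaling Prkcsh and Ganab lay at -0.43 and -0.47.

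Pkhd1 (ENSMUSG00000043760.16) encodes fibrocystin, a large single-pass membrane protein. The gene lies on the minus strand at chr1:20057779-20618064 (GRCm38). In the order of replicates A, B and C, which is kept below, it stood at 90.6, 95.4 and 46.7 TPM at E16.5 and at 258, 259.6 and 208 TPM at E18.5. The stages did not overlap, and replicate C was the lowest at each stage. The mean went from 77.5 ± 26.8 to 242 ± 29.7 TPM (SD, n = 3 each), a log2 fold change of 1.69 (SE 0.27, limma adjusted p = 0.0112). That was 1.27 above the median of all genes, and 97.6% of the genes tested had a lower value. Pkhd1 passed the test under all 15 alternative settings, each replicate left out in turn included.

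The promoters of Pkhd1, which rose, and Ganab, which did not pass, are shown since they differ in the common promoter motifs. RefSeq (GRCm38.p6) places that of Pkhd1 at chr1:20618008-20618307 on the minus strand. That of Ganab is at chr19:8897807-8898106 on the plus strand, and both are given 5′ to 3′. Each window runs from 250 bases before to 50 bases after the start used for it. For Pkhd1 and Ganab that start differs by some bases from the gene limits given in the text. Capitals mark the CCAAT boxes and GC boxes, which the Pkhd1 window does not hold.
Pkhd1: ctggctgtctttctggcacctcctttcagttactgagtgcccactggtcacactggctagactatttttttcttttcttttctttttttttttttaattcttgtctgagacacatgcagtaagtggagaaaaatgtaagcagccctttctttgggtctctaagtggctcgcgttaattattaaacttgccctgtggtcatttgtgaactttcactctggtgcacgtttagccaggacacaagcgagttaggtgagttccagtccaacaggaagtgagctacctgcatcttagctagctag
Ganab: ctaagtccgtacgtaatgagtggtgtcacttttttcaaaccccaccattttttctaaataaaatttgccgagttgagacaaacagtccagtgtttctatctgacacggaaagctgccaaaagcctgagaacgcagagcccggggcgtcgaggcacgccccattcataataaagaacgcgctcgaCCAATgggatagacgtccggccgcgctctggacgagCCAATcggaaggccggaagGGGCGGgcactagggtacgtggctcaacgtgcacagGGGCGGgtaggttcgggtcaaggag
The motifs searched, on both strands, were the CCAAT box (CCAAT), the GC box (GGGCGG) and the E-box (CACGTG), none of which overlapped another in these windows, and they were chosen with the stage differences known. Of 32851 mouse promoters of the same length, 37.4% held a CCAAT box, 35.7% a GC box and 7.15% an E-box. The GC content of the Pkhd1 promoter was 43.3%, and 17.3% of promoters were lower. Ganab held 2 CCAAT boxes, 66 and 30 bases before the start, and 2 GC boxes. RefSeq entries were found for 7 of the 9 genes, not for Bicc1 and Anks6. A match is a run of letters that says nothing by itself on binding. Pkd1 and Sec63 each held 5 GC boxes, Prkcsh held 1 E-box, and the windows of Pkhd1, Pkd2 and Dzip1l held none of the 3 motifs.

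Pkd2 (ENSMUSG00000034462.9), at chr5:104459450-104505819 on the plus strand, encodes the channel subunit polycystin 2. It stood at 40.4, 47.9 and 24.8 TPM at E16.5 and at 102, 111 and 83.4 TPM at E18.5. The stages did not overlap, and replicate C was again the lowest at each. The mean went from 37.7 ± 11.8 to 98.7 ± 14.0 TPM, a log2 fold change of 1.41 (SE 0.25, limma adjusted p = 0.0128), which is 0.99 above the median of all genes. Pkd2 passed under 14 of 15 alternatives, and without replicate A of E18.5 its value was 1.38 with a limma adjusted p of 0.0501, the highest of a range from 0.00999 over the alternatives.

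Pkd1 (ENSMUSG00000032855.5), at chr17:24549834-24596508 on the plus strand, encodes the receptor-like polycystin 1. It stood at 31.9, 26.4 and 25.4 TPM at E16.5 and at 40.5, 46.5 and 47.9 TPM at E18.5. The stages did not overlap, and among the 6 genes that rose Pkd1 moved least. The mean went from 27.9 ± 3.51 to 45.0 ± 3.96 TPM, a log2 fold change of 0.67 (SE 0.14, limma adjusted p = 0.0168), only 0.26 above the median of all genes. After median-of-ratios scaling the change was 0.23 and did not pass (limma adjusted p = 0.204, the highest of a range from 0.0127 over the alternatives). Without replicate A of E18.5 the limma adjusted p was 0.0514 and without replicate B of E18.5 it was 0.0505. Of its exon length, 3.98% overlaps exons of Tsc2 on the opposite strand, and whether reads were counted by strand is not given in the sources used here. The same limit holds for Bicc1 (4.69% of its exon length), Sec63 (1.97%) and Pkhd1 (1.45%), each of which shares exon bases with a noncoding gene on the opposite strand, and for no other member.

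Dzip1l (ENSMUSG00000037784.14), at chr9:99629496-99669256 on the plus strand, encodes a protein of the ciliary transition zone, the gate at the base of the cilium. It stood at 22.7, 23.4 and 12.9 TPM at E16.5 and at 52.3, 57.9 and 48.4 TPM at E18.5. The stages did not overlap and, as for Pkhd1, replicate C was the lowest at each. The mean went from 19.7 ± 5.86 to 52.9 ± 4.77 TPM, a log2 fold change of 1.42 (SE 0.23, limma adjusted p = 0.0112). Dzip1l passed under all 15 alternatives.

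Bicc1 (ENSMUSG00000014329.14), on the minus strand at chr10:70922832-71159700, encodes an RNA-binding protein, and Anks6 codes for an ankyrin repeat protein of the inversin compartment of the cilium that can bind BICC1 through its SAM domain. Bicc1 stood at 193, 229.98 and 107 TPM at E16.5 and at 487, 499.8 and 392 TPM at E18.5. Replicate C was the lowest at each stage, with no overlap between stages. The mean went from 177 ± 62.9 to 459.6 ± 59.1 TPM, a log2 fold change of 1.44 (SE 0.28, limma adjusted p = 0.0150). Without replicate A of E18.5 it was 1.39 with a limma adjusted p of 0.0556, the one setting of 15 under which Bicc1 did not pass, and the lowest over the alternatives was 0.0117.

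Anks6 (ENSMUSG00000066191.11), on the minus strand at chr4:47015669-47057427, was measured at a far lower level than Bicc1, and its counting error was not computed. It stood at 2.18, 2.06 and 1.08 TPM at E16.5 and at 5.19, 4.22 and 4.51 TPM at E18.5. Again every E18.5 library was above every E16.5 library. The mean went from 1.77 ± 0.605 to 4.64 ± 0.498 TPM, a log2 fold change of 1.05 (SE 0.26, limma adjusted p = 0.0270) on the log2(TPM + 1) scale, which understates the change of so low a gene, and with a pseudocount of 0.1 it was 1.40. The call was the least steady of the 6: it held under 5 of 13 alternatives and in 1 of the 6 fits that left out a library, the one without replicate A of E16.5. The limma adjusted p was 0.0505, 0.0575, 0.0892, 0.0648 and 0.0552 without E16.5 replicates B and C and E18.5 replicates A, B and C in turn, and over all alternatives it ran from 0.0247 to 0.107.

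The 3 genes of the endoplasmic reticulum showed another pattern. Ganab (ENSMUSG00000071650.5), at chr19:8898071-8916672 on the plus strand, stood at 343, 337 and 320.0 TPM at E16.5 and at 329.97, 360.5 and 302 TPM at E18.5. The stages overlapped, with means of 333 ± 11.9 TPM (E16.5) and 331 ± 29.0 TPM (E18.5) and a log2 fold change of -0.01 (SE 0.11, limma adjusted p = 0.934). Prkcsh (ENSMUSG00000003402.14), at chr9:22002806-22014222 on the plus strand, stood at 113, 106 and 100.2 TPM at E16.5 and at 116, 112 and 96.0 TPM at E18.5. Here too the stages overlapped, with means of 106 ± 6.40 and 108 ± 10.6 TPM and a log2 fold change of 0.02 (SE 0.12, limma adjusted p = 0.907). These values depend on the scaling, since after median-of-ratios scaling Ganab was at -0.47 (limma adjusted p = 0.0212) and Prkcsh at -0.43 (limma adjusted p = 0.0263). Over the alternatives the limma adjusted p ran from 0.0212 to 0.982 for Ganab and from 0.0162 to 0.955 for Prkcsh.

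Sec63 (ENSMUSG00000019802.13), at chr10:42761496-42832514 on the plus strand, stood at 38.8, 35.8 and 32.2 TPM at E16.5 and at 45.8, 45.5 and 39.6 TPM at E18.5. The stages did not overlap, by a margin of less than 1 TPM. The mean was 35.6 ± 3.31 TPM at the earlier and 43.6 ± 3.53 TPM at the later stage, a log2 fold change of 0.29 (SE 0.13, limma adjusted p = 0.117), and after median-of-ratios scaling it was -0.16 (limma adjusted p = 0.231). Sec63 passed under none of the 15 alternatives, over which the limma adjusted p ran from 0.0687 to 0.809.

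The scaling matters for all 9 genes, because most genes had higher TPM at E18.5. Of the 7000 genes called, 83.3% were higher at E18.5 with TPM as deposited. Median-of-ratios scaling, which sets the typical gene level between libraries, brought the all-gene median to 0.01 and left 3865 genes called, of which 39.5% were higher. Under it 4 of the 9 genes rose and 2 fell, against 6.82% and 10.5% of all genes tested. Quantile normalization, after which 50.5% of the calls were higher, left 4 of the 9 rising, against 8.53% of all genes higher and 8.37% lower. Voom on the recovered reads, with 42.9% of its calls higher, had 4 of 6 tested members rising and Prkcsh falling, against 8.74% and 11.6% of all genes. Pkhd1, Dzip1l, Pkd2 and Bicc1 were the members that rose under both scalings, whereas the direction of Prkcsh and Sec63 turned.

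Replicate C of E16.5 was the lowest of its stage for all 9 genes. The typical gene was also lowest there, as the median-of-ratios factors were 0.923, 0.885 and 0.763 for replicates A, B and C. The share of all genes that were lowest in replicate C was not counted. The mean of replicates A and B was 1.99 times the value in replicate C for Pkhd1, 1.97 times for Bicc1 and for Anks6, and 1.78 times for Dzip1l and for Pkd2. It was only 1.15 times for Pkd1, 1.16 for Sec63, 1.09 for Prkcsh and 1.06 for Ganab. The same ratio was 2.47 for Sox9, 3.36 for the epithelial adhesion gene Epcam and 5.29 for the keratin gene Krt19, and all 11 cholangiocyte markers were lowest in replicate C. Without replicate C of E16.5 the log2 fold change was 1.36 for Pkhd1, 1.14 for Pkd2, 1.16 for Dzip1l and 1.11 for Bicc1, each past the test. The part of this library in the results was not tested beyond that.

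The balance between partners was followed by ratios within a library, which do not depend on the scaling between libraries. The question was whether genes whose products act together kept a fixed ratio over the 2 stages, and 6 pairs were compared with exact permutation tests, two-sided, with p-values adjusted over the pairs. Pkhd1 over Pkd1 was 2.84, 3.61 and 1.84 at E16.5 and 6.39, 5.58 and 4.33 at E18.5, a log2 difference of 1.01 (SE 0.33, exact p = 0.1, adjusted 0.2). Pkd2 over Pkd1 was 1.27, 1.81 and 0.977 at E16.5 and 2.52, 2.38 and 1.74 at E18.5, a difference of 0.74 (SE 0.31, exact p = 0.2, adjusted 0.3), and its stages overlapped. In replicate C of E16.5 both polycystin genes stood at nearly the same TPM, and in the other 5 libraries Pkd2 was the higher.

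Pkhd1 over Pkd2 moved less, from 2.24, 1.99 and 1.88 to 2.54, 2.34 and 2.49, a log2 difference of 0.27 (SE 0.082, exact p = 0.1, adjusted 0.2). Prkcsh over Ganab, the ratio of the glucosidase II subunits, was between 0.312 and 0.351 in all 6 libraries, with a log2 difference of 0.033 (SE 0.058, exact p = 0.7, adjusted 0.84). Sec63 over Ganab was 0.113, 0.106 and 0.101 at E16.5 and 0.139, 0.126 and 0.131 at E18.5, a log2 difference of 0.31 (SE 0.063, exact p = 0.1, adjusted 0.2). Anks6 over Bicc1 showed a difference of 0.01 (SE 0.17, exact p = 0.9, adjusted 0.9). Since 0.1 is the smallest p this design allows, no ratio could pass the test.

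The 9 genes were also set against Sox9 of the same library, the gene whose reporter served for the sort. These ratios were picked with the values in view and are given as a description. Pkhd1 over Sox9 was 0.575, 0.512 and 0.671 at E16.5 and 0.623, 0.558 and 0.588 at E18.5, a log2 difference of 0.02 (SE 0.12), which ran from -0.08 to 0.12 when each library was left out in turn. The difference relative to Sox9 was -0.26 for Pkd2, -0.25 for Bicc1, -0.24 for Anks6 and -0.22 for Dzip1l. It was far lower for Pkd1 at -0.997, for Sec63 at -1.39, for Prkcsh at -1.67 and for Ganab at -1.70. Replicate C of E16.5 carried much of the smaller differences, and without it they were -0.10 for Pkd2, -0.14 for Bicc1, -0.13 for Anks6 and -0.06 for Dzip1l. Without it Pkd1 was at -0.63, Sec63 at -1.03, Prkcsh at -1.28 and Ganab at -1.30. Without replicate B of E16.5 the difference was -0.34 for Dzip1l and -0.37 for Anks6, and without replicate B of E18.5 it was -0.08 for Anks6.

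**Figure D3:**
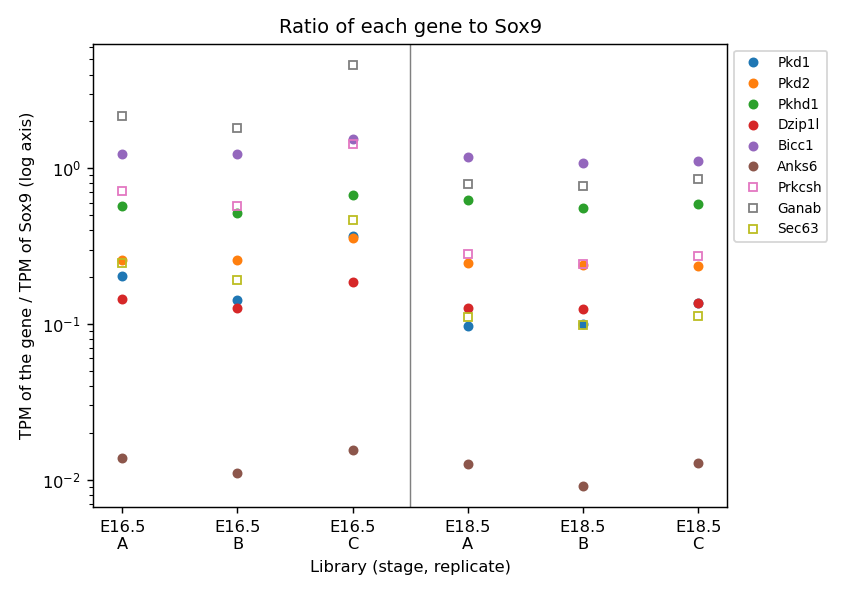
TPM of each gene divided by the TPM of Sox9 in the same library (y axis, log scale), for the 6 libraries by stage and replicate (x axis), with open squares for the genes of the endoplasmic reticulum. Pkhd1 over Sox9 stayed between 0.512 and 0.671, whereas Ganab over Sox9 went from 1.81 to 4.603 at the earlier stage to 0.774 to 0.857 at the later one.

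Around the polycystins, fibrocystin and Dzip1l, 8 paralogs were looked up, of which 6 passed the filter on low values and 1 was called, in the lower direction. Pkd1l3, a polycystin 1 paralog known from taste cells, stood at 22.3, 13.5 and 36.0 TPM at E16.5 and at 2.57, 3.74 and 3.38 TPM at E18.5. It fell by 2.47 on the log2 scale (SE 0.34, limma adjusted p = 0.0089), with no overlap of the stages and the highest value in replicate C of E16.5, and 2.69% of its exon length overlaps Ist1 on the opposite strand. The paralogs Pkd1l1 at 0.73, Pkhd1l1 at 0.87, Dzip1 at 0.62 and Pkd2l2 at 0.24 did not pass (limma adjusted p = 0.113, 0.124, 0.135 and 0.303). Pkd1l2 and Pkd2l1 were under a mean of 1 TPM.

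Among 18 other genes of protein translocation, folding and N-glycan synthesis in the endoplasmic reticulum, 1 rose, 7 fell and 10 did not pass, and their median log2 fold change was -0.25. The 7 that fell include 3 subunits of the Sec61 channel, through which new chains enter: Sec61a1 at -0.39 (limma adjusted p = 0.0245), Sec61b at -0.94 (limma adjusted p = 0.0099) and Sec61g at -0.76 (limma adjusted p = 0.0253). Sec62, which works with SEC63 at that channel, was the gene that rose, by 0.68 (limma adjusted p = 0.0153), and after median-of-ratios scaling it was at 0.23 and did not pass. Mogs, which removes the first glucose before glucosidase II acts, was at -0.44 and did not pass (limma adjusted p = 0.0529). After the scaling 12 of the 18 fell and the other 6 did not pass. Hepatoblast markers, many of which encode secreted proteins, fell for 7 of 12 with a median of -1.24, and their part in the values of the endoplasmic reticulum genes was not tested.

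Of 8 genes listed for the inversin compartment or for BICC1 and its partners, 4 rose and the other 4 did not pass. After median-of-ratios scaling 1 rose. That 1 was Nek8, the kinase that ANKS6 activates. It went from 10.4 ± 2.77 to 27.6 ± 1.72 TPM, a log2 fold change of 1.35 (limma adjusted p = 0.0105), and was at 0.93 after the scaling. Anks3, which links ANKS6 to BICC1, rose by 0.50 (limma adjusted p = 0.0218) and was at 0.06 after the scaling. Invs at 0.51, of the same compartment, did not pass (limma adjusted p = 0.102).

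Of 15 other genes listed for cystic kidney or liver disease, 14 were tested, 12 rose and the other 2 did not pass. Their median log2 fold change was 0.98, and after median-of-ratios scaling 5 rose. That list is not complete and holds none of the 18 endoplasmic reticulum genes above, of which 1 rose, 7 fell and 10 did not pass. Its counts therefore do not stand for all genes of such disease. Glis3, a zinc finger transcription factor, went from 37.7 ± 19.0 to 208 ± 25.2 TPM (log2 fold change 2.59, limma adjusted p = 0.0105). Glis2 at 1.58 and the cilium genes Ift88 at 1.34, Cys1 at 1.32 and Nphp4 at 1.25 also rose. All 14 tested genes had their lowest E16.5 value in replicate C, the library in which the typical gene and the cholangiocyte markers were also lowest.

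Of 10 genes of cAMP and growth signalling, 1 rose and 9 did not pass, and after median-of-ratios scaling 1 rose and 2 fell. Sctr, the secretin receptor of bile duct cells, stood at 6.38, 8.09 and 2.31 TPM at E16.5 and at 51.7, 45.7 and 41.6 TPM at E18.5. Its log2 fold change was 2.96 (SE 0.36, limma adjusted p = 0.0082), and 10 of 11 cholangiocyte markers rose as well, with a median of 1.59. After the scaling 5 of these 11 markers rose, with a median of 1.15.

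**Figure D4:**
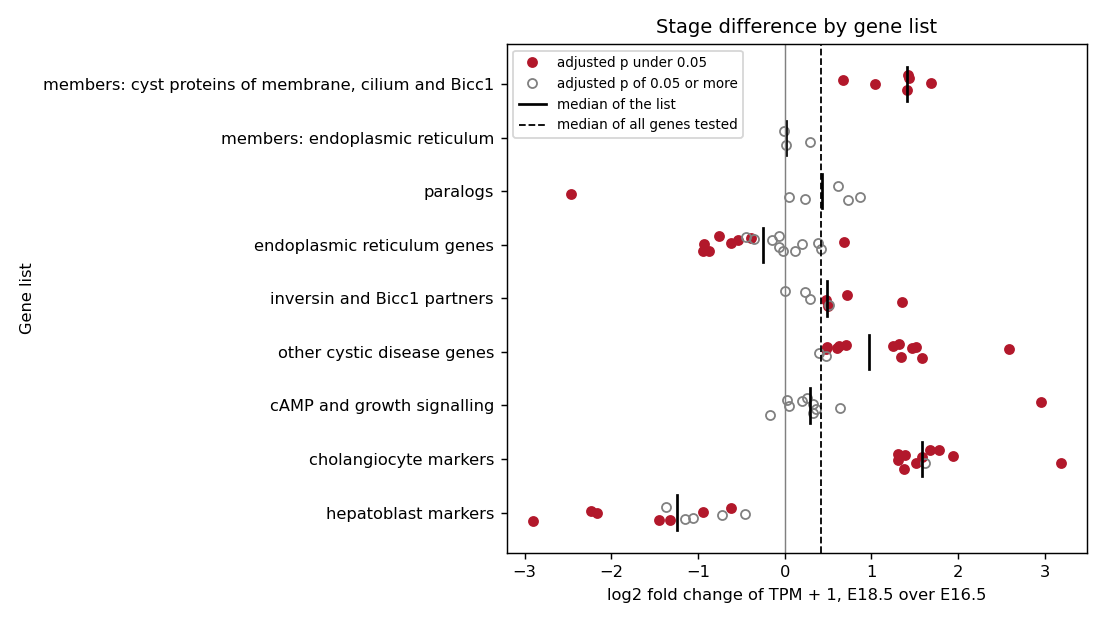
Log2 fold change of TPM + 1 (x axis, E18.5 over E16.5) of each tested gene by gene list (y axis), filled where the limma adjusted p was under 0.05, with a bar at the median of the list and a dashed line at the median of all genes tested. The 14 tested genes listed as other cystic disease genes spread from 0.40 to 2.59. Those of the endoplasmic reticulum list spread from -0.94 to 0.68 around a median of -0.25. The 3 members of the endoplasmic reticulum, polycystic disease genes themselves, lay between -0.01 and 0.29.

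To find the genes whose pattern over the 6 libraries was most like that of each of the 9, 11383 protein-coding genes averaging 5 TPM or more were ranked by the root mean square difference of their centred log2(TPM + 1), the members left out. The closest were Mapk8ip1 to Pkhd1 (0.027), Cdc42ep1 to Pkd2 (0.026), Cux1 to Pkd1 (0.029), Stox2 to Dzip1l (0.041), Pou6f1 to Bicc1 (0.040), Bbs4 to Anks6 (0.053), Naa10 to Prkcsh (0.029), Psmf1 to Sec63 (0.012) and Pomp to Ganab (0.018). Onecut1, a biliary transcription factor, was among the 3 nearest to Bicc1 and App, the amyloid precursor gene, among the 3 nearest to Pkhd1. Between the members, Pkd2 and Bicc1 differed by 0.06 and Prkcsh and Ganab by 0.06 as well, whereas Pkhd1 and Ganab lay 0.90 apart. These are distances over 6 libraries of 2 stages that share a stage difference.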

How the data were processed

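RNA of GFP-positive cells from 3 libraries a stage was sequenced with a stranded total RNA kit, and samples were grouped by their stage label. The authors checked reads with FastQC 0.11.7, trimmed them, aligned them with HISAT2 2.1.0 to GRCm38, assigned them to GENCODE vM15 genes with HTSeq 0.5.4p3 and converted the counts to TPM; the submitters' notes also list Bowtie. The deposited values are TPM summing to 1000000 per library, and all 6 columns were used. Gene places and lengths came from GENCODE vM21 on the same build (52403 identifiers matched by accession). TPM multiplied by exon length gave whole reads within 0.01, which served only for depth, counting error and an alternative test.

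The main test was limma 3.58.1 (R 4.3.3, eBayes with a mean-variance trend) on log2(TPM + 1), restricted to 22452 genes averaging at least 1 TPM, and p-values were adjusted by Benjamini-Hochberg. Exact permutation tests used Python 3.11.15 and scipy 1.17.1. The members, lists and pairs were chosen with earlier results of these data known. Named genes are the 9 members, their nearest partners and paralogs, listed genes called with a log2 fold change of 1 or more in size, and the 3 genes most like each member. Alternatives were another pseudocount (0.1), no filter or a filter at 5 TPM, median-of-ratios and quantile scaling, eBayes without the trend or robust, the replicate letters as a block, voom on recovered reads, and leaving out each library. Sox9, Epcam and Krt19, the promoter motifs, and leaving out each library in the ratios to Sox9 were chosen after values were seen. Values of some single genes are left out of the text, though the counts over their lists hold them.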

Additional observations from a re-analysis of the deposited data

How the results depend on the processing

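Pkhd1 and Dzip1l passed the test under all 15 alternatives. Leaving out each library in turn gave 2 to 6 genes called higher, the lowest without replicate A of E18.5, and 1472 to 5686 genes called over all genes. The log2 fold change then ranged from 0.61 to 0.77 for Pkd1, 1.14 to 1.60 for Pkd2, 1.11 to 1.66 for Bicc1, 0.85 to 1.16 for Anks6, -0.033 to 0.10 for Prkcsh and -0.077 to 0.050 for Ganab. Median-of-ratios scaling gave 2 members called lower and 3865 genes called, with Pkd1 at 0.23, Anks6 at 0.72, Prkcsh at -0.43, Sec63 at -0.16 and Ganab at -0.47. Quantile normalization gave 3796 genes called, with Pkd1 at 0.34, Anks6 at 0.62, Prkcsh at -0.18 and Sec63 at -0.034. Voom on recovered reads could test 6 members, with 1 called lower and 4159 genes called, Prkcsh at -0.43 and Sec63 at -0.15. With no filter on low values, 4282 genes were called and Anks6, at 1.05, did not pass. With a pseudocount of 1 in the ratio, Anks6 over Bicc1 differed by -0.39. These scalings move the all-gene median by construction; beyond that the cause was not tested. A mean of at least 5 TPM leaves Anks6 out.

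Same-letter correlations of deviations ran from -0.042 to 0.140, and those between other letters from -0.146 to 0.084. Not every library correlated best with its own letter. With 3 libraries a stage these values cannot decide whether the replicate letters pair the libraries. With the replicate letters as a block, 7314 genes were called, 6 members were called higher, and no call of a member changed, with Pkd1 at a limma adjusted p of 0.0301 and Anks6 at 0.0415.

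Recovered depth was lowest in replicate C of E18.5. There, 3 reads correspond to at most 0.173 TPM for a member, so depth did not limit detection of the 9 genes. With 3 libraries a stage, single ratios could not reach an exact p under 0.1.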
